A study of Sus scrofa with 6 samples.

Results

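The SLC25 genes encode the mitochondrial carriers, and 39 of them were followed here by RNA-seq in 6 gut samples of pigs. A gene was taken as a member when its pig Ensembl identifier mapped to a symbol of SLC25A and a number, which gave 39 of the 21911 genes in the deposited table. SLC25A20, the carnitine-acylcarnitine carrier, was left out by that rule. A mean of at least 1 FPKM over the 6 libraries, which 32 of the 39 reached, was needed for a test. SLC25A2, SLC25A18, SLC25A29, SLC25A30, SLC25A31, SLC25A37, SLC25A51 and SLC25A52 matched no row by symbol and were not analysed here.

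Mitochondrial carriers are small proteins of the inner mitochondrial membrane that pass metabolites, nucleotides and cofactors between the cytosol and the matrix. Most work as exchangers, letting one compound in as another leaves. In the gut epithelium they serve ATP supply for nutrient uptake, the breakdown of glutamine and glutamate as fuel and, in the small intestine of young pigs, the synthesis of citrulline and arginine.

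There were 3 samples labelled Control and 3 labelled SMP, and the design text describes piglets that drank metasilicate-based alkaline mineral water against a Control group. The tissue is labelled gut, with no more detail. The sources used here do not give the dose, duration, age, sex or gut segment, and the labels do not say whether each sample is a separate animal. The p-values therefore set each difference against the spread between these samples, and whether they extend to animals is not known. Levels are in FPKM (fragments per kilobase per 1000000 of the library total), so that levels of different genes can be set side by side per length. Each difference is the SMP mean less the Control mean of log2(FPKM + 1), a scale that understates changes of low genes, and adjusted p-values are from limma over all 11471 tested genes.

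The library totals behind the FPKM values were 15927028 to 20712701 reads or read pairs. Markers of epithelium were abundant in every library, their summed level being 3072 to 3721 FPKM in Control and 4156 to 4972 in SMP. Over all tested genes 401 were higher and 241 lower in SMP, 62.5% of the changed genes being higher, and median-ratio scaling turned this to 344 and 462 (42.7% higher). Control replicate 2 and SMP replicate 3 stood apart from the other libraries of their groups on the second principal component, at 38.6 and -28.9 against -15.1 to 6.10 for the other 4. The Y-linked gene EIF1AY was at 0 to 0.187 FPKM in Control and 23.9 to 29.6 in SMP, and the sex of the animals and the treatment cannot be told apart in any comparison below. Of 7 tested markers of the proximal small intestine 3 fell, and of 5 of the large intestine 4 rose and 1 fell (summed level 109 to 192 FPKM in Control and 80.3 to 117 in SMP), so the position along the gut cannot be told apart from the treatment either.

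The carriers spanned a wide range of levels. SLC25A6 and SLC25A5, ADP/ATP carriers that exchange mitochondrial ATP for cytosolic ADP, had the highest mean levels, 421 and 329 FPKM over the 6 libraries. SLC25A3, the phosphate carrier that supplies ATP synthase, followed at 321. These 3 genes held 66.5% to 71.2% of the summed FPKM of the 39 members in each library. SLC25A39, a carrier needed for mitochondrial glutathione import, stood next at 93.3, ahead of the dicarboxylate carrier SLC25A10 (65.9), the citrate carrier SLC25A1 (65.7) and the glutamate carrier SLC25A22 (63.5). The other 32 members lay at or below 25.8 FPKM. All 39 together made up 0.379%, 0.291% and 0.380% of the summed FPKM in the Control libraries, in replicate order, and 0.328%, 0.352% and 0.319% in the SMP libraries. The 2 ranges overlapped, with the lowest share in Control replicate 2. The shares rest on library sums of 430337 to 490808 FPKM, which include the 13 genes encoded by the mitochondrial genome. Those genes summed to 86090, 151216 and 96747 FPKM in Control and 148405, 123706 and 150108 in SMP, so the shares also vary with them.

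**Figure D1:**
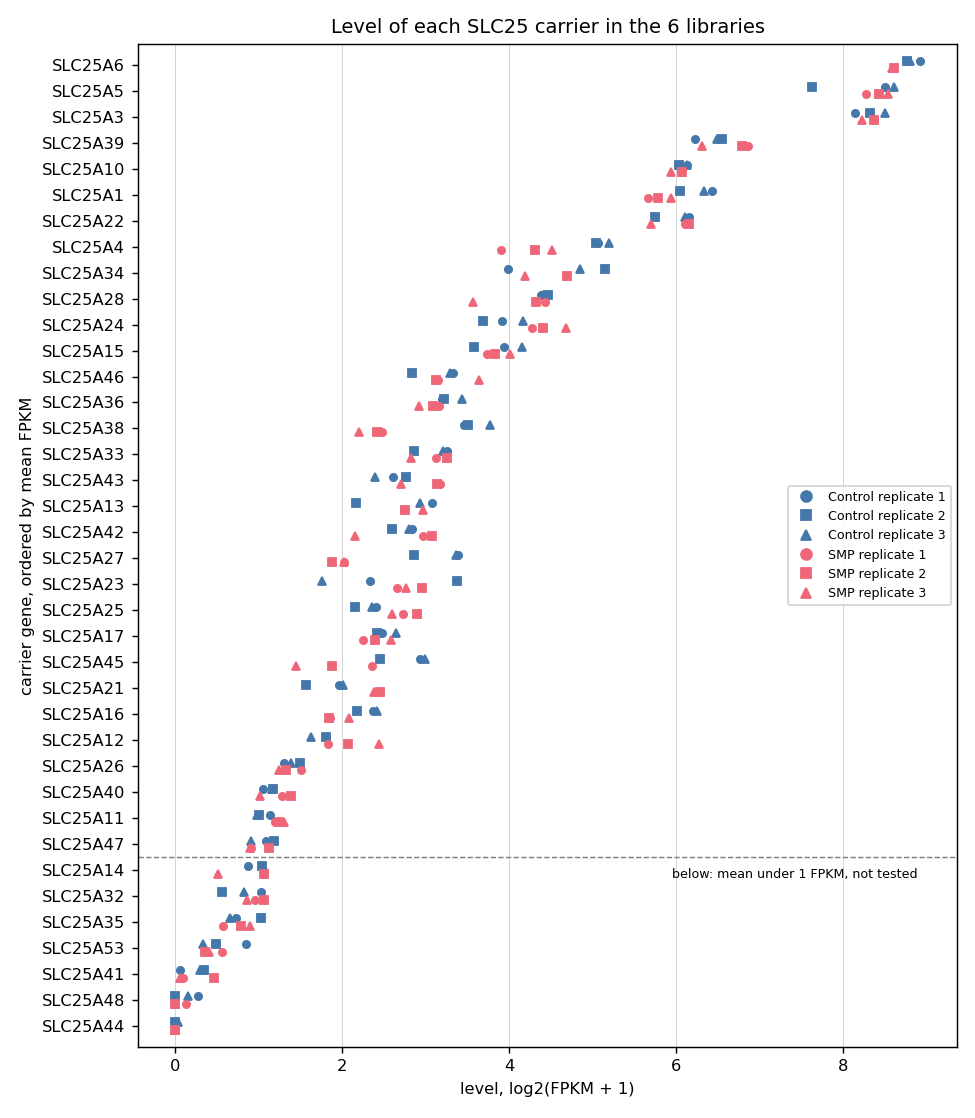
Level of 38 of the 39 SLC25 carriers in every library, as log2(FPKM + 1) on the horizontal axis, with genes ordered by their mean FPKM and symbols giving the replicate number. SLC25A6, SLC25A5 and SLC25A3 stand apart at the top, and the 7 genes under the dashed line had a mean under 1 FPKM and were not tested.

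The comparison asked which carriers differed with the mineral water, and it found 3 carriers lower in SMP and 0 higher. The glycine carrier SLC25A38, the uncoupling protein relative SLC25A27 and the ADP/ATP carrier SLC25A4 fell, and the other 29 tested members did not pass the test. These 3 of 32 tested members were 9.38%, beside 5.6% of all tested genes changed in either direction and 2.1% lower in SMP. Without Control replicate 3, SMP replicate 1 or SMP replicate 2, each left out alone, 0 members passed. In those fits 0.407%, 0.463% and 0.377% of all genes passed. With Control replicate 2 and SMP replicate 3 both left out, 2 members were higher and 6 lower of 33 tested (24.2%, beside 26.7% of all genes in that fit). The 3 carriers were among the 6 (adjusted p = 0.0106 for SLC25A38, 0.00564 for SLC25A27 and 0.0160 for SLC25A4). Those 2 libraries were left out because they stood apart in these same data, so that fit is no separate evidence for the calls. With voom on the whole numbers behind the FPKM values of all 6 libraries the counts of members were 0 higher and 3 lower. This was 9.38%, beside 6.40% of all genes in that fit. At an unadjusted p under 0.05, 3 members were higher and 6 lower, 28.1% of those tested against 25.8% of all genes. The 3 SMP values lay wholly on 1 side of the 3 Control values in 13 members (40.6%), 5 higher and 8 lower, beside 32.6% of all tested genes, of which 21.1% were higher and 11.5% lower. The median log2 difference was -0.02 over the tested members and 0.09 over all tested genes. With median-ratio scaling these medians were -0.12 and -0.002, and with quantile normalization -0.06 and 0.01.

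**Figure D2:**
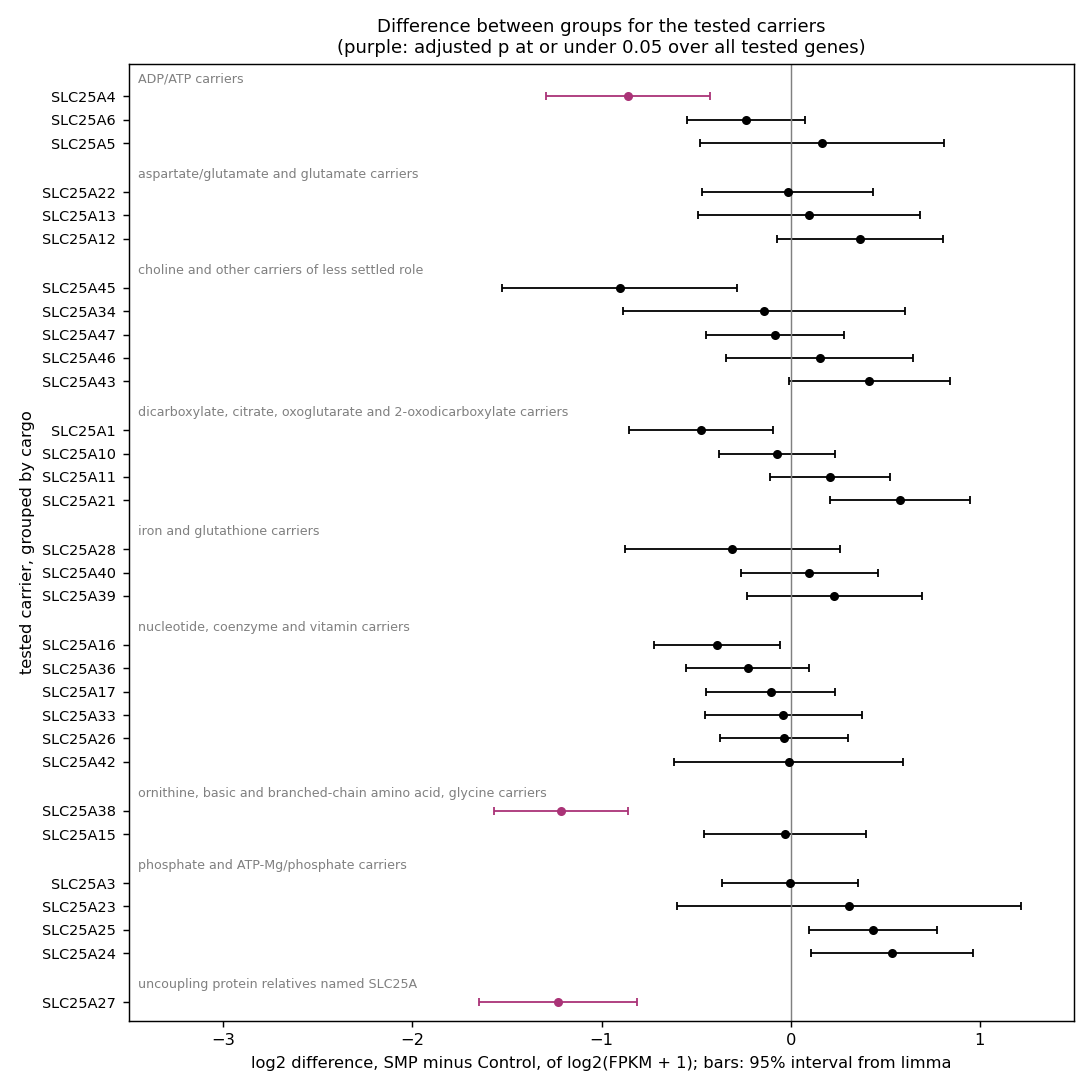
Log2 difference between SMP and Control for 31 of the 32 tested carriers on the horizontal axis, with the 95% interval from limma as bars, grouped by cargo. SLC25A38, SLC25A27 and SLC25A4, in purple, passed the test over all genes, and the intervals of 22 of the 28 others drawn cross 0.

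SLC25A38 (ENSSSCG00000029708) is a glycine carrier of the inner membrane and is needed for haem synthesis, whose opening step joins glycine to succinyl-CoA in the matrix. It stood at 10.04, 10.4 and 12.7 FPKM in Control against 4.58, 4.37 and 3.60 in SMP, here and below in the order of replicates 1, 2 and 3. Every SMP library was below every Control library, and the gap between the groups was wider than the spread within either. The mean fell from 11.03 ± 1.46 to 4.19 ± 0.514 (SD, n = 3), 2.64-fold, with a log2 difference of -1.21 (SE 0.15, adjusted p = 0.0132). It had the smallest p among the members and ranked 75 of 11471 tested genes. Fits that left out Control replicate 3 (adjusted p = 0.0745), SMP replicate 1 (0.0659) or SMP replicate 2 (0.0794) lost the call, and over all alternatives the adjusted p ranged from 6.71e-04 to 0.0794.

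SLC25A27 (ENSSSCG00000001720) belongs to the uncoupling protein branch of the family and is known mainly from brain. Its levels were 9.44, 6.28 and 9.33 FPKM in Control against 3.07, 2.67 and 3.07 in SMP. Control replicate 2 was the lowest Control library and still well above every SMP library. The mean fell 2.84-fold, from 8.35 ± 1.80 to 2.94 ± 0.227, with a log2 difference of -1.23 (SE 0.18, adjusted p = 0.0190). The call was lost without Control replicate 1 (0.0568), Control replicate 3 (0.0984), SMP replicate 1 (0.0962) or SMP replicate 2 (0.109), within a range of 5.68e-04 to 0.109 over all alternatives. SLC25A14, a relative of the same branch, averaged 0.930 FPKM and was not tested.

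SLC25A4 (ENSSSCG00000015790) is the ADP/ATP carrier known as the main form of heart and skeletal muscle. It was at 32.6, 32.0 and 35.8 FPKM in Control against 14.03, 18.8 and 21.9 in SMP. The groups did not overlap, and the SMP libraries were more spread than the Control libraries. The mean fell 1.84-fold, from 33.5 ± 2.02 to 18.2 ± 3.94, with a log2 difference of -0.86 (SE 0.18, adjusted p = 0.0456). This was the weakest of the 3 calls, and it was lost when any single library other than SMP replicate 3 was left out, at adjusted p-values of 0.0525 to 0.180, as well as with no filter (0.0759) and with quantile normalization (0.0604), within 0.00488 to 0.180 over all alternatives.

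**Figure D3:**
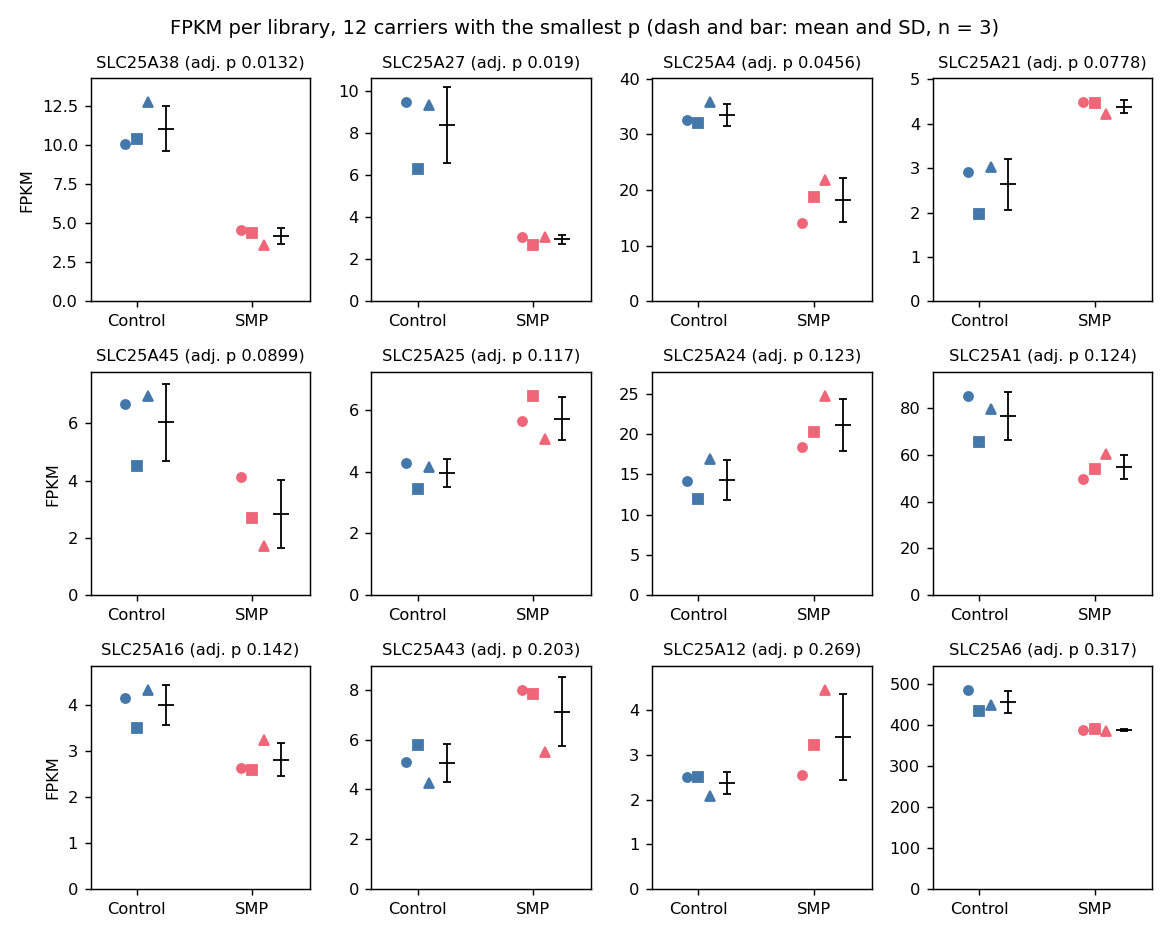
FPKM per library in Control and SMP for the 12 tested carriers with the smallest p, each panel with its own axis from 0 and the mean and SD (n = 3) beside the points. SLC25A38, SLC25A27 and SLC25A4 show groups that do not overlap and pass the test, whereas in SLC25A43 one SMP library lies within the Control range.

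Marker levels of other cell types are set beside these falls. The summed level of 8 smooth muscle markers was 167 to 2788 FPKM in Control and 1603 to 2197 in SMP. The highest SLC25A4 was in Control replicate 3, which had the lowest muscle sum. Within SMP it was in replicate 3, whose muscle sum of 2197 was close to the 2191 of replicate 2. The relation of SLC25A4 to muscle content was not tested. Markers of enteric neurons and glia, 7 of 8 with a row, summed to 22.03 to 58.9 in Control and 21.6 to 39.99 in SMP. Pan-leukocyte markers (8 genes) summed to 134 to 249 and 108 to 157. None of these 3 lists held a changed gene, none of their genes with a row was at 0 in all libraries, and their ranges overlapped between the groups. Their median log2 differences were 1.36 for smooth muscle, 0.21 for neurons and glia and -0.44 for leukocytes. Of 7 tested leukocyte genes 3 were wholly lower in SMP, beside 11.5% of all tested genes, and 0 of the muscle or neuron genes were without overlap. The part of these differences in the falls of the 3 carriers was not tested. The proximal small intestine markers, 7 of 8 with a row, did separate the groups, at 203 to 539 in Control and 105 to 123 in SMP, and their part in the falls of the 3 carriers was not tested. In these bulk samples fewer cells of a type and less RNA per cell cannot be told apart.

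The remaining ADP/ATP carriers were the most abundant members. SLC25A6 was at 486, 434 and 448 FPKM in Control against 387, 389 and 385 in SMP. All SMP values were below all Control values, but the difference was small (log2 difference -0.23, 95% interval -0.55 to 0.08, adjusted p = 0.317). SLC25A5, the form known from dividing cells, was at 361, 198 and 390 in Control against 309, 345 and 371 in SMP. Control replicate 2 was far below the other Control libraries, and the groups overlapped (log2 difference 0.17, interval -0.48 to 0.81, adjusted p = 0.738). The SLC25A4 share of the summed FPKM of these 3 genes was 3.71%, 4.82% and 4.09% in Control and 1.97%, 2.49% and 2.81% in SMP. Near-identical copies of the ADP/ATP carrier genes exist in mammalian genomes and how the authors treated multi-mapping reads was not stated in the labels, so reads may be divided among them in ways these values cannot show.

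Phosphate transport showed no change that passed the test. SLC25A3 was at 283, 319 and 362 FPKM in Control against 329, 330 and 300 in SMP, with overlapping groups and an interval of the log2 difference from -0.36 to 0.36. SLC25A24 and SLC25A25 are calcium-regulated carriers that exchange ATP-Mg for phosphate and so set the adenine nucleotide content of the matrix. SLC25A24 was at 14.1, 11.9 and 16.9 in Control against 18.4, 20.3 and 24.7 in SMP (log2 difference 0.54, SE 0.18, adjusted p = 0.123). SLC25A25 was at 4.29, 3.44 and 4.14 in Control against 5.65, 6.45 and 5.05 in SMP (0.44, SE 0.14, adjusted p = 0.117). In both genes all SMP values were above all Control values, yet neither passed over all genes. SLC25A23, another gene of that kind, was at 4.03, 9.41 and 2.38 in Control against 5.32, 6.79 and 5.79 in SMP, with all SMP values inside the Control range. SLC25A41, its calcium-independent relative, had 1 to 11 reads per library and was not tested.

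None of the 4 carriers of citrate and other carboxylates passed the test. SLC25A1 exports citrate, the source of cytosolic acetyl-CoA for fatty acid and sterol synthesis. It was at 85.2, 65.4 and 79.5 FPKM in Control against 49.9, 54.1 and 60.3 in SMP, without overlap (log2 difference -0.47, SE 0.16, adjusted p = 0.124). SLC25A21, which carries 2-oxoadipate from lysine and tryptophan breakdown, was at 2.90, 1.98 and 3.03 in Control against 4.48, 4.47 and 4.22 in SMP, also without overlap, from 31 to 90 reads per library (0.58, SE 0.16, adjusted p = 0.0778). SLC25A10, the dicarboxylate carrier, was at 69.1, 64.5 and 69.2 in Control against 65.9, 66.4 and 60.5 in SMP, with overlapping groups and an interval from -0.38 to 0.23. SLC25A11, the oxoglutarate carrier of the malate-aspartate shuttle, was low, at 1.20, 1.0001 and 0.982 in Control against 1.28, 1.37 and 1.48 in SMP (adjusted p = 0.385). In the fit without those 2 libraries that stood apart, SLC25A1 passed as lower (adjusted p = 0.0144) and SLC25A21 as higher (0.0368). Their ranges over all alternatives were 0.00587 to 0.343 and 0.00995 to 0.248.

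Carriers of amino acids other than glycine did not pass the test. SLC25A22, a glutamate carrier, was at 63.8 ± 9.48 FPKM in Control and 63.2 ± 10.6 in SMP (log2 difference -0.02, interval -0.47 to 0.44). The aspartate/glutamate carriers SLC25A12 and SLC25A13 move reducing equivalents into mitochondria with the malate-aspartate shuttle. SLC25A12 was at 2.51, 2.51 and 2.09 in Control against 2.55, 3.22 and 4.46 in SMP, the closest Control and SMP values almost touching (adjusted p = 0.269). SLC25A13, or citrin, was at 7.47, 3.51 and 6.62 in Control against 5.70, 5.75 and 6.84 in SMP, where Control replicate 2 lay below all other libraries. SLC25A15, the ornithine carrier that citrulline synthesis depends on, was at 14.04 ± 2.90 and 13.6 ± 1.39 (log2 difference -0.03, interval -0.46 to 0.40). SLC25A44, a carrier of branched-chain amino acids, was listed at 0 in 5 libraries, with 1 read in Control replicate 3.

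Carriers of nucleotides, coenzymes and vitamins gave 0 calls among 7 tested genes. SLC25A16, whose cargo is not settled, was at 4.16, 3.51 and 4.34 FPKM in Control against 2.63, 2.59 and 3.24 in SMP, without overlap (log2 difference -0.39, SE 0.14, adjusted p = 0.142). SLC25A36, which carries pyrimidine nucleotides, was at 8.20, 8.35 and 9.79 in Control against 7.95, 7.54 and 6.59 in SMP (log2 difference -0.23, adjusted p = 0.353). SLC25A33, the other pyrimidine nucleotide carrier, was at 8.54, 6.28 and 8.25 in Control against 7.72, 8.58 and 6.10 in SMP, with overlapping groups. The coenzyme A carrier SLC25A42, the S-adenosylmethionine carrier SLC25A26 and the peroxisomal carrier SLC25A17 had overlapping groups and adjusted p-values from 0.684 to 0.985. SLC25A32, the folate carrier, averaged 0.854 FPKM and was not tested.

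Iron and glutathione carriers also gave 0 calls, among 3 tested. SLC25A28, a mitoferrin that brings iron into mitochondria, was at 19.9, 21.1 and 20.2 FPKM in Control against 20.7, 19.1 and 10.8 in SMP, so that SMP replicate 3 alone was low (log2 difference -0.31, adjusted p = 0.466). SLC25A39 was at 73.8, 93.1 and 89.3 in Control against 115, 110 and 78.6 in SMP (0.23, interval -0.23 to 0.69, adjusted p = 0.503). SLC25A40, its close relative, was far lower, at 1.08, 1.25 and 1.23 in Control against 1.43, 1.61 and 1.03 in SMP.

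The carriers of less settled role had 5 tested members and 0 calls. SLC25A45 had the largest difference among the members that missed the threshold, at 6.67, 4.50 and 6.96 FPKM in Control against 4.11, 2.68 and 1.72 in SMP (log2 difference -0.90, SE 0.26, adjusted p = 0.0899). The groups did not overlap, though SMP replicate 1 came close to Control replicate 2. SLC25A43, X-linked as SLC25A5 is, was at 5.12, 5.79 and 4.26 in Control against 7.9999, 7.83 and 5.52 in SMP, with SMP replicate 3 inside the Control range (0.42, SE 0.18, adjusted p = 0.203). In that same fit SLC25A45 passed as lower (0.0324) and SLC25A43 as higher (0.0224), and SLC25A16 of the preceding group as lower (0.0271). Over all alternatives their adjusted p-values ranged from 0.0134 to 0.265, from 0.00582 to 0.482 and from 0.00647 to 0.390. SLC25A34 was at 25.8 ± 9.92 and 22.3 ± 4.36. SLC25A46, an outer membrane protein that acts in mitochondrial fission and cristae upkeep, was at 8.01 ± 1.62 and 9.04 ± 2.11.

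The 7 members under the filter had means from 0.00357 to 0.930 FPKM. SLC25A14 at 0.930 and SLC25A32 at 0.854 lay just outside it, and SLC25A47, a carrier known from liver, at 1.03 and SLC25A11 at 1.22 just inside. SLC25A32 was read 43 to 127 times per library, so the filter and not a lack of reads kept it from the test, whereas SLC25A48 had 0 to 5 reads, which is about the floor of 3 reads. SLC25A35 and SLC25A53 had 22 to 37 and 13 to 35 reads.

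The balance between related carriers was followed in 8 of 9 pairs, as the difference of their log2(FPKM + 1) values in each library. SLC25A4 over SLC25A5 was -3.43, -2.59 and -3.41 in Control against -4.37, -4.13 and -4.02 in SMP. Each SMP library was below each Control library, and the mean shift was -1.03 (exact permutation test, two-sided, p = 0.1, the smallest that 3 against 3 samples allow, and 0.4 after Benjamini-Hochberg adjustment over 8 pairs). SLC25A10 over SLC25A11 was the other pair without overlap, at 4.99, 5.03 and 5.15 in Control against 4.87, 4.83 and 4.63 in SMP (shift -0.28, or -0.43 with a pseudocount of 0.1, exact p = 0.1). The other 6 pairs overlapped, with exact p-values from 0.2 to 0.8. SLC25A5 over SLC25A6 was -0.43, -1.13 and -0.20 in Control against -0.32, -0.17 and -0.05 in SMP, a shift of 0.40 in which Control replicate 2 stands out. SLC25A12 over SLC25A13 was -0.98 ± 0.54 and -0.71 ± 0.20.

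**Figure D4:**
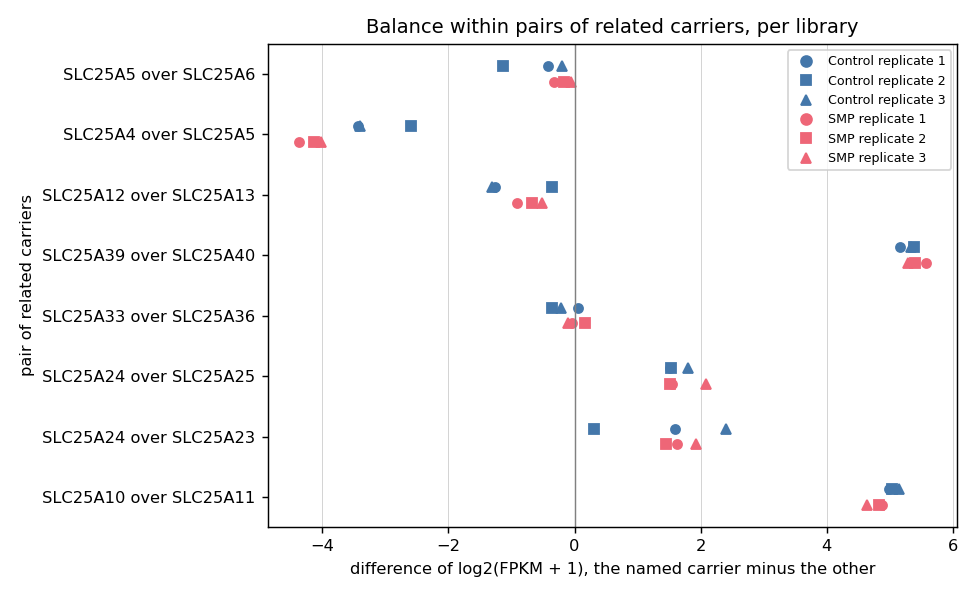
Difference of log2(FPKM + 1) within 8 pairs of related carriers on the horizontal axis, 1 point per library. SLC25A4 over SLC25A5 and SLC25A10 over SLC25A11 are the pairs in which the SMP points lie wholly below the Control points, with mean shifts of -1.03 and -0.28.

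Genes that work next to the carriers were read from 8 lists of enzymes, import factors and other transporters, and 8 of their 68 tested genes rose while 0 fell. This was 11.8%, beside 3.5% of all tested genes higher in SMP. The lists were chosen with earlier results of these data known, so shares of their genes set against all genes are descriptive and not a test. The number of calls varied with the libraries kept, in the lists and over all genes. Without Control replicate 3, SMP replicate 1 or SMP replicate 2 the lists held 0 of the 8 calls. In those fits 0.407%, 0.463% and 0.377% of all genes were called, beside 5.6% with all 6 libraries. Without Control replicate 1 only the call of TYMS remained (1.27% of all genes called). Without Control replicate 2 there were 5 (9.26%), and without SMP replicate 3 all 8 (9.29%). With no filter on the mean only ARG2 and TYMS passed, and median-ratio scaling left 6 calls (without OTC and ACLY) and quantile normalization 6 (without SFXN2 and ACLY). At the level of groups that do not overlap, 27 of the 68 were higher (39.7%) and 10 lower (14.7%), beside 21.1% and 11.5% of all tested genes.

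In the list of citrulline and ornithine enzymes 2 of 8 rose, but the list as a whole did not. Its summed level was 822 to 1047 FPKM in Control and 730 to 816 in SMP, and its median log2 difference was -0.19. The groups did not overlap in 4 of the 8, of which 2 were higher and 2 lower, beside 32.6% of all tested genes. OTC, which makes citrulline from ornithine in the matrix, was at 68.1, 69.8 and 85.7 FPKM in Control against 127, 119 and 114 in SMP (log2 difference 0.69, SE 0.15, adjusted p = 0.0485). It passed in 8 of the 16 alternatives, and was lost with median-ratio scaling (0.0653) and with no filter (0.0669). ARG2, the mitochondrial arginase that yields ornithine, rose from 2.86 ± 0.315 to 6.13 ± 0.237, 2.15-fold (adjusted p = 0.0185). In the list of folate enzymes 2 of 7 rose. TYMS, the thymidylate synthase, rose from 10.2 ± 0.184 to 23.4 ± 1.60, and MTHFD2, a folate dehydrogenase of mitochondria, from 2.62 ± 0.231 to 5.93 ± 1.42 (adjusted p = 0.00913 and 0.0373). Markers of cell division moved with them, summing to 51.9 to 60.7 in Control and 86.9 to 131 in SMP over 5 genes of 8, 2 of which rose, and their part in the folate genes was not tested.

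Among other transporters of the inner membrane 2 of 12 rose, both sideroflexins. SFXN1, a serine transporter, was at 5.61, 6.44 and 6.74 FPKM in Control against 12.2, 11.97 and 9.33 in SMP (adjusted p = 0.0420). SFXN2 rose 2.31-fold from 0.933 ± 0.173 to 2.16 ± 0.0859 (adjusted p = 0.0359). Of 12 genes of the import route that carriers take into mitochondria, TOMM40, the channel of the outer membrane, rose from 28.1 ± 2.84 to 50.4 ± 7.89 (adjusted p = 0.0436), and the other 11 did not pass. Of 7 genes of the malate-aspartate shuttle and citrate use, ACLY, which splits exported citrate, rose from 14.3 ± 1.34 to 24.1 ± 3.59 (adjusted p = 0.0496). This call was at the edge of the threshold, passing in 5 of the 16 alternatives and lost with pseudocounts of 0.1 (0.0513) and 0.5 (0.0503), median-ratio scaling (0.0800), quantile normalization (0.0637) and no filter (0.0739). The citrate carrier SLC25A1 differed the other way, at 76.7 ± 10.2 and 54.8 ± 5.27, but did not pass.

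The haem and iron-sulfur cluster list, which concerns the pathway fed by SLC25A38, gave 0 calls among 12 tested genes. The groups did not overlap in 7 of the 12, of which 3 were higher and 4 lower, beside 32.6% of all tested genes. The smallest p of this list belonged to CPOX, a late enzyme of haem synthesis, at 8.52 ± 3.06 and 18.2 ± 0.819 (adjusted p = 0.0618). ALAS1, the enzyme that uses the glycine, was at 26.8 ± 1.01 and 29.9 ± 6.14 (adjusted p = 0.679). The thiamine list gave 0 calls among 8, with PDHB at 26.3 ± 2.75 and 35.6 ± 3.22 (adjusted p = 0.131). Among family relatives outside the symbol rule, UCP2, an uncoupling protein of many tissues, was at 15.5 ± 3.03 and 11.1 ± 1.78 (adjusted p = 0.195). The 13 genes encoded by the mitochondrial genome itself summed to 86090 to 151216 FPKM in Control and 123706 to 150108 in SMP, with 0 calls and overlapping sums.

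**Figure D5:**
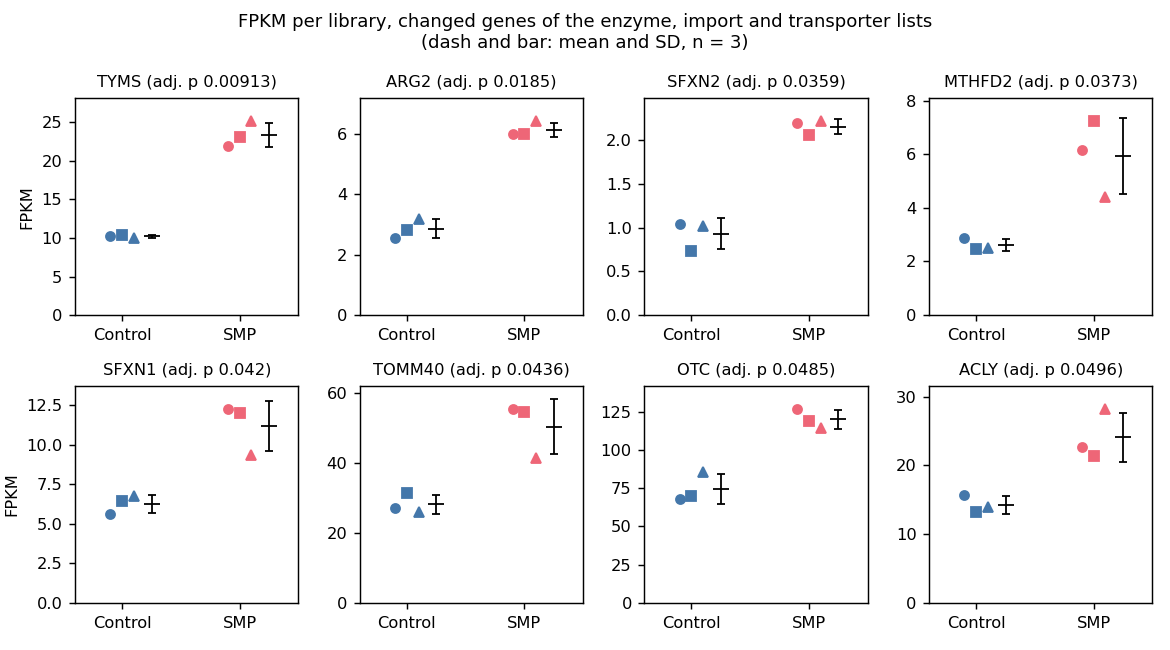
FPKM per library for the 8 changed genes of the enzyme, import and transporter lists, each panel with its own axis from 0 and the mean and SD (n = 3) beside the points. In all 8 panels every SMP library lies above every Control library.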

How the data were processed

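Gut RNA of 3 Control and 3 SMP pig samples was made into NEBNext Ultra libraries, per the labels' protocols. HISAT2 2.0.5, StringTie and DESeq2 1.16.1 are named in the submitters' processing notes, without their roles, and so is the build mm10, a mouse build, whereas the identifiers are pig Ensembl identifiers. The build is therefore unsettled and no coordinates are given. Strand setting and the treatment of multi-mapping reads are not stated.

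The authors deposited FPKM values for 21911 genes, the unit being read from the values. Each is a whole number over a gene length and a library total, recovered for 21911 genes at a relative tolerance of 5e-09. Read numbers given are the smallest whole numbers that fit, and intervals cover counting error only where they rest on reads. Symbols came from a gene name table (14153 matched).

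Values were tested as log2(FPKM + 1) where the mean over all libraries reached 1 FPKM (11471 genes), with limma 3.58.1 in R 4.3.3 (treatment only, empirical Bayes trend, Benjamini-Hochberg at 0.05), a step also tested on simulated data. Pairs used an exact permutation test (scipy 1.17.1). No library was a repeat deposit, since chi-square per degree of freedom between replicates was 12.7 to 103.

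Members, lists and tests were chosen with earlier results of these data known. Values per library are given for changed members, the 14 with the smallest p, the 6 most abundant and the members of listed pairs. From the other lists come up to 4 changed genes, or the one with the smallest p. ALAS1 was named after its values were seen. One member enters the counts but is not reported here by itself. The 16 alternatives were filters (none, or a mean of 5), pseudocounts of 0.1 and 0.5, median-ratio and quantile scaling, array weights, the replicate number as a block, voom on the recovered numbers, each library left out, and Control replicate 2 and SMP replicate 3 left out together.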

Additional observations from a re-analysis of the deposited data

How the results depend on the processing

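Across the 16 alternatives SLC25A38, SLC25A27 and SLC25A4 stayed lower in SMP, and they passed the test in 13, 12 and 8 of them. Members changed were 0 higher in all except array weights (5 higher and 6 lower, with 2933 and 1436 of all genes) and the fit without both Control replicate 2 and SMP replicate 3 (2 higher and 6 lower, with 1808 and 1235). Leaving out 1 library gave 0 members higher in each case and 0 to 3 lower, and 20 to 779 higher and 20 to 526 lower over all genes. It was 0 members lower without Control replicate 3, SMP replicate 1 or SMP replicate 2, and 1 without Control replicate 1. Of all genes 0.407%, 0.463%, 0.377% and 1.27% were called in those fits, in that order. With a mean of at least 5 FPKM 241 of all genes were higher, with median-ratio scaling 462 were lower, and with no filter 158 were higher and 100 lower. The replicate number as a block gave 115 higher and 121 lower over all genes and 2 members lower, SLC25A4 being lost (adjusted p = 0.0881), and of the 8 calls in the enzyme, import and transporter lists 1 remained, TYMS. Deviations of same-numbered libraries from their group means correlated at -0.31, 0.32 and -0.04. The labels do not say that a number pairs samples, and these mixed values cannot settle it.

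In some alternatives 14 of the members named turned direction, with 0 of them called in a fit where they turned. With array weights these were SLC25A5 (-0.090), SLC25A13 (-0.14), SLC25A22 (0.045), SLC25A26 (0.0073), SLC25A33 (0.019), SLC25A34 (0.036), SLC25A42 (0.23), SLC25A46 (-0.11) and SLC25A47 (0.063). With quantile normalization they were SLC25A3 (0.096), SLC25A10 (0.039), SLC25A22 (0.094) and SLC25A40 (-0.028). With libraries left out, singly or both those named above, 12 ranges crossed 0: SLC25A3 (-0.092 to 0.087), SLC25A5 (-0.20 to 0.35), SLC25A13 (-0.26 to 0.27), SLC25A15 (-0.26 to 0.099), SLC25A22 (-0.14 to 0.13), SLC25A23 (-0.059 to 0.77), SLC25A26 (-0.11 to 0.075), SLC25A33 (-0.16 to 0.083), SLC25A34 (-0.48 to 0.27), SLC25A42 (-0.18 to 0.28), SLC25A46 (-0.17 to 0.24) and SLC25A47 (-0.16 to 0.016). Without both libraries together SLC25A3 (0.041), SLC25A5, SLC25A13, SLC25A22 (0.00068), SLC25A26, SLC25A34 (0.27), SLC25A42 (0.20), SLC25A46 (-0.17) and SLC25A47 (0.016) turned. The cause of these moves was not tested.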

Other observations

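Single libraries set much of the spread in some carriers, which were picked for description after their values were seen. Control replicate 2 was the lowest Control library in 18 of the 32 tested carriers (56.3%, against 46.6% of all tested genes), and SMP replicate 3 the lowest SMP library in 19 (59.4%, against 53.9%). SLC25A23 was at 4.03, 9.41 and 2.38 FPKM in Control, and SLC25A34 at 14.9, 34.4 and 27.9. Among SMP libraries SLC25A42 was at 6.83, 7.46 and 3.44, and SLC25A28 at 20.7, 19.1 and 10.8, with replicate 3 the lowest in both.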
